A study of Mus musculus with 5 samples.

Results

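The classical cadherins and catenins build adherens junctions, the contacts that hold neighbouring epithelial cells together. A set of 10 genes of this kind, taken by gene symbol, was followed in all libraries: the catenins Ctnnb1, Jup, Ctnna1 and Ctnnal1 and the cadherins Cdh1, Cdh2, Cdh3, Cdh6, Cdh11 and Cdh16. All 10 were found among the 17923 genes listed in at least 1 library, through 14 RefSeq transcripts. RNA came from mouse thyroid tumor cells that carry BrafV600E, the mutation that keeps the MAPK cascade active in papillary thyroid cancer. The groups comprised 2 libraries labelled BVE-Ctnnb1wt, with Ctnnb1 intact, and 3 labelled BVE-Ctnnb1null, with Ctnnb1 deleted. The BVE-Ctnnb1wt libraries (called wt here) came from a single line named BVE at passage 20. Thyroid-stimulating hormone (TSH) was left out for replicate 1 (wt 1) and given for replicate 2 (wt 2). The BVE-Ctnnb1null libraries (called null here) came from lines named BVECTN_4 at passage 8 without TSH (replicate 1, called null 1), BVECTN_4A at passage 11 (replicate 2, null 2) and BVECTN_5 at passage 7 (replicate 3, null 3). No TSH condition is labelled for the last 2, while the culture protocol gives a medium with 4 mU/mL bovine TSH and about 25 wt and 20 null passages. The age of the mice, the Cre driver, the promoter of the Braf allele and the deleted exons of Ctnnb1 are not given in the sources used here. Genotype cannot be told apart from line and passage, and the wt spread is that of a single line. The estimated counts of a library summed to between 29360002 and 30713079.

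A cadherin crosses the membrane and binds a cadherin of the next cell. Its cytoplasmic tail holds β-catenin (Ctnnb1) or, at the same place, the closely related plakoglobin (Jup, γ-catenin), and either one binds α-catenin (Ctnna1), which ties the complex to actin. β-catenin that is not held at the membrane can enter the nucleus and act with TCF/LEF factors in Wnt signaling, while plakoglobin also serves desmosomes. In epithelia, including the thyroid follicle, E-cadherin (Cdh1) is the main cadherin, and a shift towards N-cadherin (Cdh2) or cadherin-11 (Cdh11) is known from mesenchymal cells. The comparison asked whether Jup or another cadherin takes up a larger part of the junction RNA where Ctnnb1 was deleted.

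The labels were first checked on the RNA. Levels are FPKM, the estimated reads scaled to transcript length and library size, in which genes can be compared with each other, and TMM-scaled CPM (CPM being counts scaled to the library total, after correction for library make-up) is named where it is used. Ctnnb1 RNA was not lower in the libraries labelled null: it had an FPKM of 59.29 and 73.75 in wt 1 and 2 and of 124.58, 196.26 and 117.82 in null 1, 2 and 3. The values count whole transcripts and do not show whether an exon is missing. In RNA of whole cultures, a smaller share of cells with a transcript and less of it per cell cannot be told apart. Of the thyroid follicular markers, Tshr and Foxe1 stayed at or under an FPKM of 0.11 and Tg, the thyroglobulin gene, at or under 0.86 in all 5 libraries. Slc5a5, the iodide transporter gene of differentiated thyrocytes, had 1.03 and 0.36 FPKM in wt 1 and 2, 6.48 in null 1, and 0.05 and 0.14 in null 2 and 3. Pax8, a thyroid transcription factor, had an FPKM of 0.40 and 0.17 in wt 1 and 2 and of 18.15, 12.78 and 2.56 in the null lines, and Nkx2-1 had 9.21 and 15.02 against 9.26, 34.83 and 0.26. The 7 thyroid markers summed to 11.54 and 16.47 FPKM in wt 1 and 2, against 33.94, 48.30 and 3.45 in null 1, 2 and 3, with Nkx2-1 the most abundant on average. The null libraries differed widely from each other in epithelial and mesenchymal genes, which are given beside the cadherins below.

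The quasi-likelihood test of edgeR was run over all 13240 genes that passed the filter on low counts, and 0% were higher and 0% lower in the null libraries at a Benjamini-Hochberg adjusted p of 0.05. Every edgeR p below is from that test. At an unadjusted p under 0.05, 12.4% of genes were higher and 6.07% lower. Of the 10 genes, 9 passed the filter and Cdh16 did not. None of the 9 passed the adjusted threshold, and the lowest adjusted p among them was 0.206, for Cdh6. Jup, Cdh6 and Cdh11 were higher at an unadjusted p under 0.05, and 0 of the 9 were lower. The median log2 fold change of the 9 was 0.66, against 0.29 for all genes tested. Of the 9, 4 genes, Ctnnb1, Jup, Cdh6 and Cdh11, had an FPKM in every null library above both wt libraries, and so did 35.9% of all genes tested. None of the 9 lay below both wt libraries in every null library, compared with 7.22% of genes. In TMM-scaled CPM, Jup, Cdh6 and Cdh11 kept the groups apart and Ctnnb1 did not, beside 22.6% of genes higher and 17.3% lower in every null library. With 2 libraries against 3, an exact permutation test cannot give a two-sided p below 0.1.

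**Figure D1:**
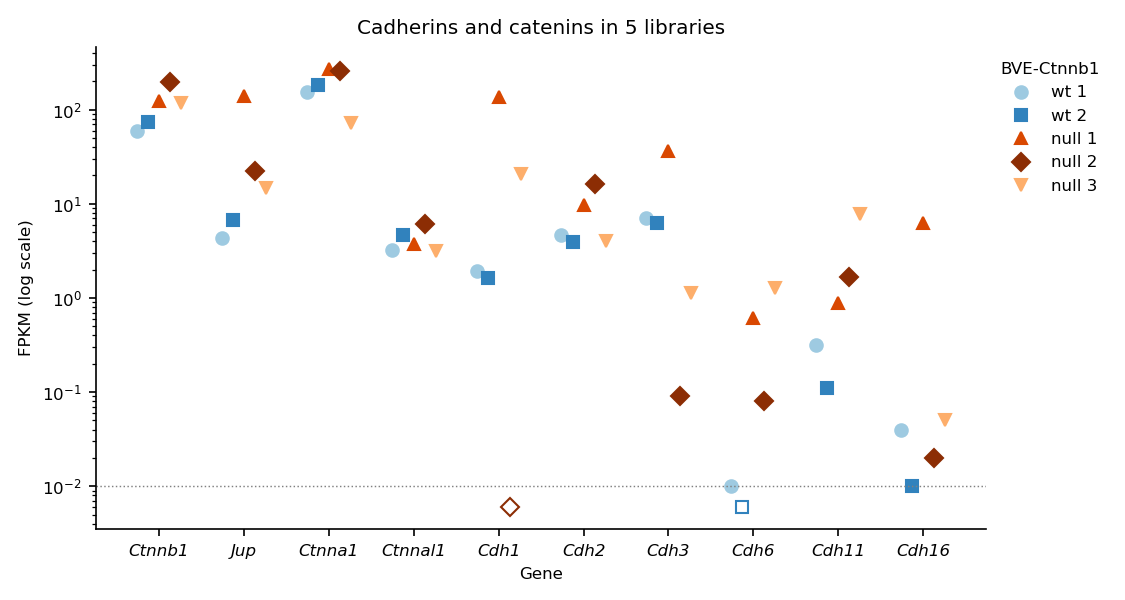
FPKM on a log axis (y) of the 10 genes (x) in each library; each symbol is 1 library, blue for BVE-Ctnnb1wt and orange to brown for BVE-Ctnnb1null, and an open symbol under the dotted line at 0.01 marks a gene that was not listed in that library. For Cdh1 the wt libraries lie close together, at 1.94 and 1.62, whereas the null libraries spread from not listed to 135.74.

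Jup was the catenin that differed most between the groups. Its FPKM was 4.28 and 6.71 in wt 1 and 2, 138.72 in null 1, 22.31 in null 2 and 14.60 in null 3. All null libraries lay above both wt libraries, and null 1 lay far above the other two. Relative to the wt mean, Jup was 25.2-fold higher in null 1, 4.06-fold in null 2 and 2.66-fold in null 3, while the wt libraries differed by 1.57-fold from each other. The log2 fold change was 2.88 (standard error, SE, 1.15, edgeR adjusted p = 0.256). It was 1.05 without null 1, and between 2.42 and 3.28 when another library was left out. The exact permutation test of the FPKM gave p = 0.5.

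Ctnnb1 differed less. Its FPKM in each null library exceeded that of the wt libraries (exact permutation test, p = 0.1, the smallest possible), by 1.87-fold, 2.95-fold and 1.77-fold of the wt mean in null 1, 2 and 3. In TMM-scaled CPM the groups overlapped, with 251.1 and 356.4 in wt 1 and 2 and 418.2, 572.2 and 343.8 in the null lines. The log2 fold change was 0.55 (SE 0.44, edgeR adjusted p = 0.517).

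The files list 2 Ctnnb1 transcripts. By the RefSeq starts and the GENCODE annotation of GRCm38, NM_007614 begins at position 120933400 of chromosome 9 and NM_001165902 begins 178 bases downstream, at 120933578. They differ in the untranslated first exon, of 239 and 39 bases, and this difference of 200 bases is also the difference of the lengths in the files. The 14 coding exons are the same, so both transcripts encode the same protein. NM_007614 held 32.3% and 23.6% of the Ctnnb1 FPKM in wt 1 and 2, 78.9% in null 1, 40.2% in null 2 and 30.5% in null 3. Null 1 thus stood apart, with an FPKM of 98.26 for NM_007614 and 26.32 for NM_001165902, whereas NM_001165902 was the larger of the pair in the other 4 libraries. The groups overlapped in this share. Reads that tell the transcripts apart can come only from these first exons, so the split is an estimate from a short stretch.

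The 250 bases before the start of Jup and before the upstream start of Ctnnb1 are shown because these are the catenins that can take the same place on the cadherin tail. RefSeq windows (GRCm38.p6) were at hand for 4 of the 10 genes. Both are printed 5′ to 3′ on the strand of the gene, chr11:100397791-100398040 (minus strand) for Jup and chr9:120933150-120933399 (plus strand) for Ctnnb1. Capitals mark CCAAT boxes (CCAAT) and GC boxes (GGGCGG), searched on both strands and without overlap of one with the other.
Jup: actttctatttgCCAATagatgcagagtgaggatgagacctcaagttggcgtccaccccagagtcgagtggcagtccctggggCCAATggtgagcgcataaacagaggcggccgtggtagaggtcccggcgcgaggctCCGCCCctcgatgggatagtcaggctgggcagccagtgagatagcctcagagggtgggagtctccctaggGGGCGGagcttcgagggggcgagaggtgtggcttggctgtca
Ctnnb1: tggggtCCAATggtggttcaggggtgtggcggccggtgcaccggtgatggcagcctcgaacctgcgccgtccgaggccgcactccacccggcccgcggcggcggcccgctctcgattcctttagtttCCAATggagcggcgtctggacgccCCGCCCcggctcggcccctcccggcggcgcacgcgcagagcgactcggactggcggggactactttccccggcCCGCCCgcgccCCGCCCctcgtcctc
Each window held 2 CCAAT boxes, and Jup held 2 and Ctnnb1 3 GC boxes. A CCAAT box was found in 34.5% and a GC box in 32.9% of 27025 windows of the same length. The GC content was 62.0% for Jup and 74.8% for Ctnnb1, against a median of 52.0%. The TCF/LEF core, written CTTTGA (in 14.1% of windows) or CTTTGT (16.5%), and the Snail-type E-box CAGGTG (17.1%) were not in either window, which says only that these letters are not there.

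Together, Ctnnb1 and Jup had an FPKM of 63.57 and 80.46 in wt 1 and 2, against 263.3, 218.6 and 132.4 in null 1, 2 and 3. The FPKM sum was higher in every null library (exact permutation test, p = 0.2). In TMM-scaled CPM, null 3 was about level with wt 2. Of the FPKM sum, Jup made up 6.73% and 8.34% in wt 1 and 2. In null 1, 2 and 3 it made up 52.7%, 10.2% and 11.03%. All 3 null libraries lay above the wt libraries, null 2 and 3 only a little. The mean share was 7.54% ± 1.14 (SD, n = 2) for wt, against 24.6% ± 24.3 (SD, n = 3) for null libraries (difference 17.1 percentage points, exact permutation test, p = 0.5), and the difference was 3.08 percentage points without null 1. Jup RNA thus reached the level of Ctnnb1 RNA in null 1 alone. In the other null libraries Ctnnb1 RNA was the larger part, as in both wt libraries.

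**Figure D2:**
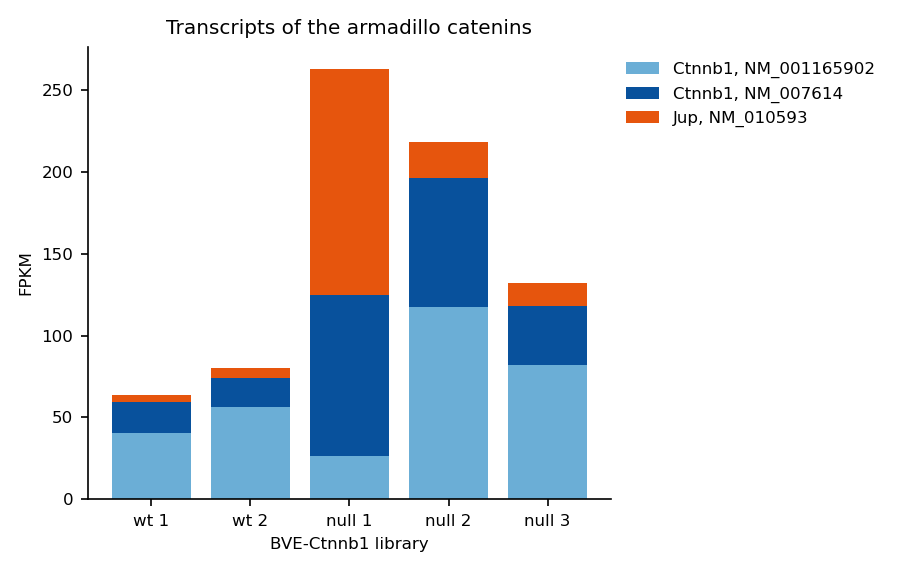
FPKM (y, stacked from 0) of the 2 Ctnnb1 transcripts and the Jup transcript in each BVE-Ctnnb1 library (x). The Jup segment is about as tall as both Ctnnb1 segments together in null 1 (138.72 against 124.58) and is a small part of the bar elsewhere.

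Ctnna1, the α-catenin that links the complex to actin, was the most abundant of the 10 genes, with a mean FPKM of 186.9 over the 5 libraries. Its FPKM was 152.61 and 182.95 in wt 1 and 2, against 270.66, 256.96 and 71.48 in null 1, 2 and 3. In FPKM, null 3 lay below and the other null libraries above the wt libraries. In TMM-scaled CPM, null 1 and 2 (937.9 and 790.6) lay between wt 1 and 2 (685.2 and 941.9), and null 3 (221.3) lay below. The log2 fold change of Ctnna1 was -0.32 (SE 0.64, edgeR adjusted p = 0.805), and its sign turned with FPKM in place of counts. Ctnnal1, which encodes the α-catenin relative α-catulin, lay between 3.15 and 6.12 FPKM in all libraries, and the null range held the wt libraries. Its log2 fold change of -0.48 (SE 0.54) also changed sign on FPKM.

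The FPKM of Cdh1, Cdh2, Cdh3 and Cdh16 overlapped between the groups, and the null lines differed widely from each other. Cdh1 had an FPKM of 1.94 and 1.62 in wt 1 and 2, 135.74 in null 1 and 20.92 in null 3, and it was not listed in null 2. The wt libraries lay between the null libraries. Relative to the wt mean, Cdh1 was 76.3-fold higher in null 1 and 11.8-fold higher in null 3. Its 0 counts in null 2, against 265 and 224 in wt 1 and 2, placed it at least 121-fold lower there (limit of 3 counts for that library, TMM-scaled CPM, counting error only). The log2 fold change over the groups was 4.39 (SE 2.66, edgeR adjusted p = 0.404), a value that describes no single null line, and it was 1.87 without null 1.

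Cdh3, the P-cadherin gene of basal epithelial cells, had an FPKM of 6.98 and 6.23 in wt 1 and 2, 36.08 in null 1, 0.09 in null 2 and 1.12 in null 3. Null 1 was above and the other null libraries were below the wt libraries. The log2 fold change was 0.44 (SE 1.88), and it was -4.13 without null 1 (edgeR adjusted p = 0.108). The transcripts of Cdh3 were also assigned differently. Both wt libraries listed NM_001037809 and no NM_007665, null 2 and 3 listed NM_007665 alone, and null 1 listed both, with 82.2% of the FPKM on NM_001037809. The transcripts have 4037 and 4034 bases in the files, and what separates them was not analysed here. In null 2 the assignment rests on 11 counts.

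Cdh2 had an FPKM of 4.61 and 3.89 in wt 1 and 2, against 9.66, 16.37 and 4.05 in null 1, 2 and 3. Null 2, the library without listed Cdh1, had the highest value, and null 3 lay between the wt libraries. The log2 fold change was 0.66 (SE 0.65, edgeR adjusted p = 0.597), and 0.08 without null 2.

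Cdh11, a type II cadherin of mesenchymal cells, had an FPKM of 0.32 and 0.11 in wt 1 and 2, against 0.88, 1.68 and 7.83 in null 1, 2 and 3. All null libraries were above both wt libraries, with 42 and 15 counts against 113, 210 and 985. The log2 fold change was 3.41 (SE 1.18, edgeR adjusted p = 0.223), and 1.98 without null 3, where the gene was highest. Cdh6, the K-cadherin gene, had 1 and 0 counts in wt 1 and 2, against 49, 6 and 99 counts in null 1, 2 and 3, a pooled ratio of 71.3 after TMM scaling with an exact 95% counting interval from 12.6 to 2835. The interval covers counting error only. Its FPKM stayed at or under 1.27, and the filter on low counts no longer kept it without null 1 or null 3. DESeq2 called Cdh6 (adjusted p = 0.0368) and Cdh11 (adjusted p = 0.0204) but not Jup (adjusted p = 0.0582), in a fit that called 8.48% of genes higher in the null libraries. Over the alternatives, the adjusted p ranged from 0.0368 to 0.841 for Cdh6, from 0.0204 to 0.841 for Cdh11 and from 0.0582 to 0.841 for Jup.

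Cdh16, a kidney and thyroid cadherin with a short tail, had 4 and 1 counts in wt 1 and 2, 576 in null 1, and 2 and 4 in null 2 and 3. It was near the limit of detection in all libraries but null 1, where its FPKM was 6.30. There, 96.5% of this FPKM was on transcript NM_007663, which was not listed in any other library.

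**Figure D3:**
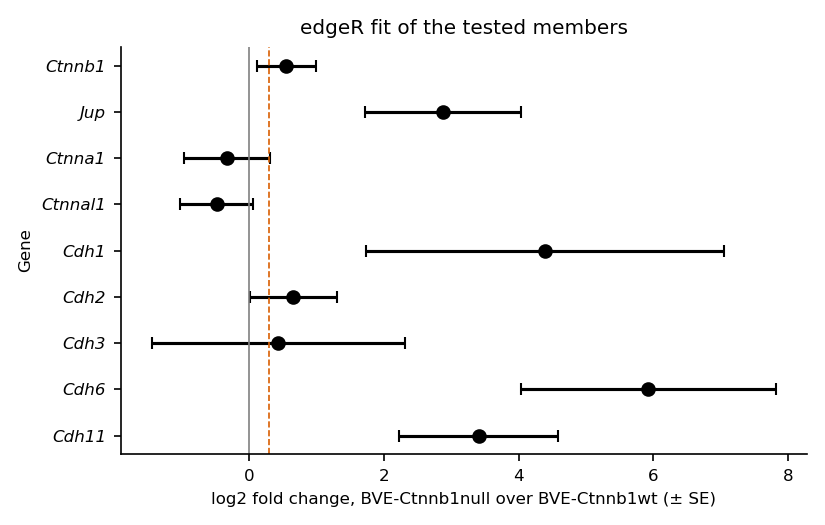
Log2 fold change (x) of BVE-Ctnnb1null over BVE-Ctnnb1wt for the 9 genes tested (y); points are edgeR estimates, bars the standard error, the grey line marks 0 and the dashed line the median of all genes tested, 0.29. Cdh6, Cdh1, Cdh11 and Jup lie farthest to the right, and no adjusted p was under 0.206.

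Summed over the 6 cadherins, the FPKM was 13.90 and 11.86 in wt 1 and 2, 189.3 in null 1, 18.2 in null 2 and 35.2 in null 3. The FPKM sum was higher in every null library (exact permutation test, p = 0.5), with null 1 far above the rest. In TMM-scaled CPM null 1 and 3 were still above the wt libraries but null 2 was not, so the groups overlapped. The make-up of the FPKM sum was nearly the same in both wt libraries. There, Cdh3 held 50.2% and 52.5%, Cdh2 33.2% and 32.8% and Cdh1 14.0% and 13.7%. Each null library had another make-up. Null 1 held 71.7% Cdh1 and 19.1% Cdh3. Null 2 held 89.7% Cdh2 and 9.21% Cdh11. Null 3 held 59.4% Cdh1, 22.2% Cdh11 and 11.5% Cdh2. No cadherin was thus the leading one in all 3 null libraries. The share of Cdh1 was 13.8% ± 0.210 (SD, n = 2) for wt, against 43.7% ± 38.3 (SD, n = 3) for null libraries (exact permutation test, p = 0.4).

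**Figure D4:**
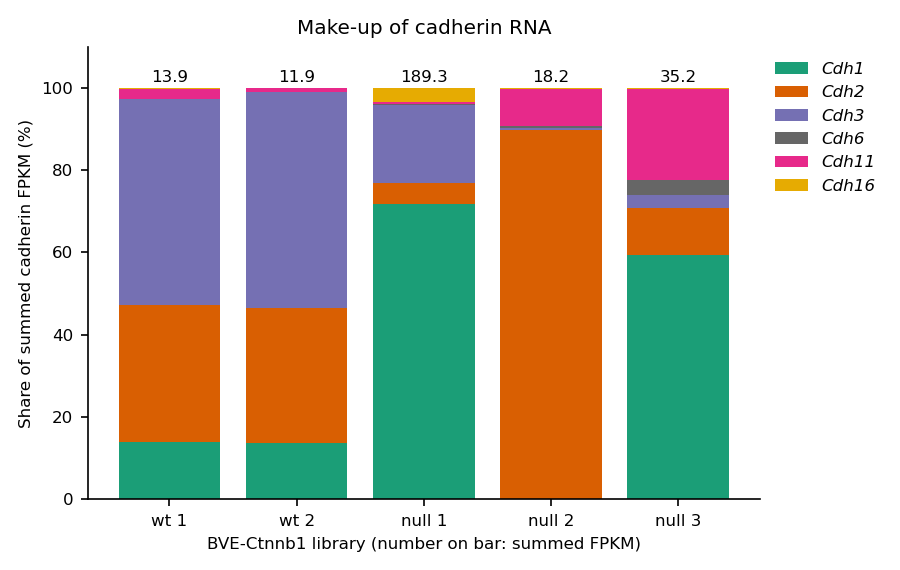
Share of each of 6 cadherins in their summed FPKM (y, percent) in each BVE-Ctnnb1 library (x), with the summed FPKM written on each bar. Cdh3 is the largest segment in both wt libraries, Cdh1 in null 1 and 3, and Cdh2 in null 2.

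Most other cadherins were low. Of 17 further cadherin genes, 13 were listed and 5 were tested, of which 0 passed in either direction (median log2 fold change -1.01). The most abundant was Cdh13, which encodes T-cadherin, a cadherin anchored by lipid that has no tail for catenins. Its FPKM was 34.15 and 42.21 in wt 1 and 2, against 21.10, 31.58 and 6.88 in the null libraries, lower in each of them (log2 fold change -1.54, edgeR adjusted p = 0.275). Cdh13 alone exceeded the 6 cadherins together in both wt libraries and in null 2. With all 23 cadherins summed, the groups overlapped, at 51.6 and 56.8 FPKM in wt 1 and 2 and 212.3, 56.3 and 45.3 in the null lines. Cdh24 lay between 0.77 and 2.58 and Cdh26 between 0.01 and 2.36 FPKM.

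Of 7 further catenins, 5 were tested and 0 passed (median log2 fold change 0.39). Ctnnd1, the p120 catenin that binds next to the membrane and keeps cadherins at the surface, had an FPKM of 36.91 and 82.90 in wt 1 and 2 and of 120.96, 95.30 and 81.12 in the null lines, which overlapped. Ctnnbip1, an inhibitor of the binding of β-catenin to TCF factors, and Pkp4, a p120 relative, lay between 4.46 and 19.73 FPKM and also overlapped. Among 13 linkers and nectins, all tested and 0 passing, the median log2 fold change was 1.07. The actin crosslinkers Actn4 and Actn1 and the α-catenin partner Vcl were the most abundant. Vcl had 33.51 and 26.69 FPKM in wt 1 and 2 and 209.49 in null 2, against 24.72 and 48.10 in null 1 and 3. Of 5 genes of cadherin cleavage and turnover, 0 passed. Adam10, the protease that sheds the outer part of cadherins, had an FPKM of 3.21 and 3.18 in wt 1 and 2 and of 12.41, 19.24 and 14.34 in the null lines, without overlap (log2 fold change 1.67, SE 0.45, edgeR adjusted p = 0.191). Adam15 was between 18.28 and 46.12.

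The desmosomal genes share Jup with the adherens junction, and 6 of 8 were tested with 0 passing (median log2 fold change 3.29). Their summed FPKM was 10.90 and 14.17 in wt 1 and 2, against 156.24, 20.49 and 32.95 in null 1, 2 and 3, highest in null 1 and next in null 3, as for the 6 cadherins. Pkp3, Pkp2 and Pkp1, plakophilins of the desmosomal plaque, were the most abundant. Pkp3 had 83.91 FPKM in null 1 and at most 3.56 elsewhere. Pkp2 had 7.59 and 8.69 FPKM in wt 1 and 2, against 17.08, 15.87 and 18.53 in null 1, 2 and 3. Pkp1 had 0.88 and 1.69 in wt 1 and 2, against 33.83, 3.94 and 7.92. The desmosomal cadherin Dsg2 and the plaque gene Dsp, named after their values were seen, reached at most 0.14 FPKM in both wt libraries, and 5.04 and 14.47 in null 1. In null 2, Dsg2 was not listed and Dsp had 0.01, and in null 3 they had 0.52 and 1.48.

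Of 11 genes of the β-catenin destruction complex and its TCF/LEF partners, all were tested and 0 passed (median log2 fold change 1.06). Csnk1a1, Fbxw11 and Axin1 of the destruction complex were the most abundant, with 10.64 to 32.63 FPKM in the wt and 13.09 to 129.06 FPKM in the null libraries. The DNA-binding partners of β-catenin and the feedback target Axin2 are also named after their values were seen. Tcf7 had 2.63 and 1.67 FPKM in wt 1 and 2, against 3.68, 2.92 and 4.45 in null 1, 2 and 3. Lef1 was not listed in either wt library and had 1.94, 2.87 and 1.54 FPKM in null 1, 2 and 3. Tcf7l1 had 0.11 and 0.04 in wt 1 and 2 and 15.50, 2.14 and 2.92 in the null lines. Tcf7l2 had 0.27 in each wt library and 2.11, 1.60 and 1.29 in the null lines. Axin2, induced by Wnt signaling, had 0.97 and 1.48 in the wt, was not listed in null 1 and had 0.09 and 0.81 in null 2 and 3. These junction and partner lists, with the transcription factors acting on Cdh1 described below, hold 67 genes, of which 51 were tested. At an unadjusted p under 0.05, 8 were higher and 1 lower, beside 12.4% and 6.07% of all genes. After adjustment with edgeR, 0 of these genes passed. DESeq2 called 10 of them higher and 0 lower, beside 8.48% of all its genes called higher. These were Nectin4, Pard3, Adam10, Snai2, Dsg2, Dsp, Pkp1, Tcf7l1, Tcf7l2 and Lef1.

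Epithelial and mesenchymal genes also differed between the libraries, and their part in the differences of the cadherins was not tested. Of 8 epithelial markers, all were tested and 0 passed. Their summed FPKM was 1096 and 1773 in wt 1 and 2, against 13239, 705.8 and 1399 in null 1, 2 and 3. Null 2 and 3 thus lay below and between the wt libraries. The keratin genes Krt7, Krt18 and Krt8 were the most abundant on average, with Krt8 leading in both wt libraries (634.39 and 1103.53), Krt7 in null 1 (5130.95) and null 3 (461.30) and Krt18 in null 2 (346.31). All 8 markers were highest in null 1, as Cdh1 was, and 5 of them were lowest in null 2, while Krt8 was lowest in null 3 (201.48) and Krt7 and Krt18 in wt 1 (79.65 and 320.53). Epcam, an epithelial adhesion gene, had 5.04 and 4.61 FPKM in wt 1 and 2, 152.05 and 59.60 in null 1 and 3, and was not listed in null 2. Of 9 mesenchymal markers, 7 were tested and 0 passed. They summed to 1768 and 3661 in wt 1 and 2, led by Vim, and to 86.7, 3012 and 2713 in null 1, 2 and 3. In null 1, Col3a1 and Pdgfrb were not listed, nor was Lum, which had at most 0.14 FPKM anywhere. In null 3, where Cdh11 was highest, the fibroblast genes Dcn and Thy1 had 84.66 and 88.47 FPKM, against at most 0.24 in every other library. Endothelial markers summed to at most 0.66 FPKM, of which Kdr had 0.62, in null 3. Of 5 immune markers, Cd68 alone was listed, with 6.09 and 14.20 FPKM in wt 1 and 2 and 59.81, 1.00 and 39.91 in the null lines, while Ptprc, Adgre1 and Cd3e had no listed transcript.

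Of 6 transcription factors known to act on Cdh1, all were tested and 0 passed (median log2 fold change 1.42). Twist1, a repressor, had 32.51 and 36.12 FPKM in wt 1 and 2, 0.02 in null 1, and 30.36 and 65.00 in null 2 and 3. Zeb1, another repressor, had 1.70 and 1.39 in wt 1 and 2 and 0.02, 8.09 and 5.36 in the null lines. Snai1 had 23.61 and 31.79 in wt 1 and 2 and 9.54, 3.87 and 25.08 in the null lines. Null 1, with the most Cdh1, had the least Zeb1 and Twist1, whereas null 3 had both repressors and 20.92 FPKM of Cdh1. Snai1 was lowest in null 2, where Cdh1 was not listed. The repressors Snai2 and Zeb2 are named after their values were seen. Snai2 had 0.22 and 0.03 FPKM in wt 1 and 2 and 0.37, 1.70 and 5.56 in the null lines. Zeb2 had 0.26 and 0.11 in wt 1 and 2 and 0.12, 2.04 and 1.15 in the null lines. Grhl2, an activator of epithelial genes named after its values were seen, had 3.82 FPKM in null 1, 0.85 in null 3 and at most 0.10 in the other libraries.

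**Figure D5:**
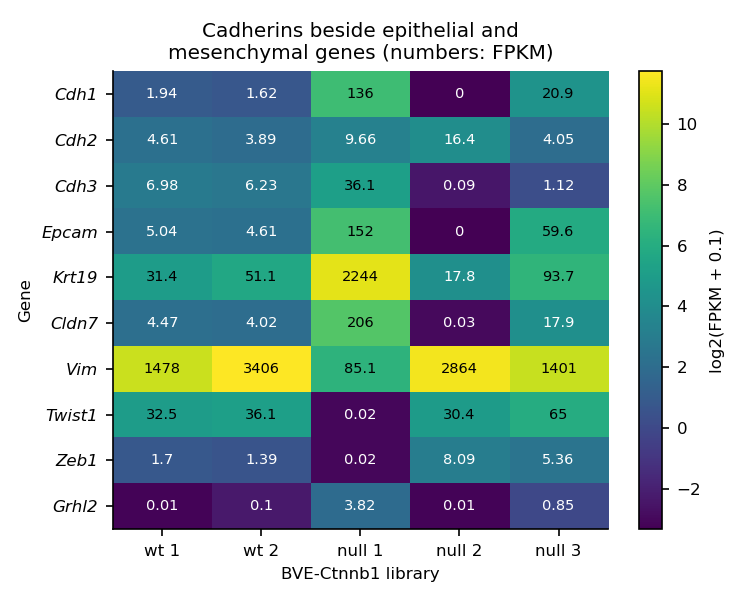
Log2(FPKM + 0.1) as color, with the FPKM written in each cell, of 3 cadherins and 7 epithelial, mesenchymal and regulatory genes chosen after their values were seen (y) in each BVE-Ctnnb1 library (x). The epithelial genes drawn, Epcam, Krt19 and Cldn7, are highest in null 1 and lowest in null 2, as Cdh1 is, whereas Krt7, Krt8 and Krt18 (not drawn) are lowest in another library, and Vim is lowest in null 1.

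The genes with the most similar pattern over the 5 libraries were sought among 5401 or 5402 genes with a mean FPKM of at least 10, by the root mean square difference of centred log2(FPKM + 0.1). This is a description over 5 libraries of similar depth, of which the wt libraries share a line. For Cdh1 these were Mal (0.29), Rab25 (0.46) and St14 (0.50). Mal had 1.39 and 1.88 FPKM in wt 1 and 2 and 123.38, 0.03 and 23.69 in the null lines. For Jup they were Slc25a10 (0.42), Gprc5c (0.46) and Tmem63b (0.50), and for Ctnnb1 they were Dpp9 (0.09), Wbp11 (0.11) and Fubp1 (0.15). Ctnna1 was closest to Hyal2 (0.08), Cdh2 to Cadm4 (0.08), another adhesion gene, and Cdh11 to Dynlt3 (0.13). Cdh3 and Cdh16 had no close match, at 0.67 for Ptges and 0.64 for Ikbke.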

How the data were processed

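RNA of 5 cultures was sequenced by the authors from TruSeq libraries on an Illumina sequencer. The aligner, the counting program, the build and the annotation are not given in the sources used here. Per library the authors deposited estimated counts, which need not be whole, and FPKM values per RefSeq transcript, listed from an FPKM of 0.01 upward. Replicates were not pooled. The wt libraries came from a single line and differ in their TSH label, so p-values measure the spread between these libraries.

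Transcript values were summed per NCBI gene, and 17866 of 17923 genes took a symbol from the RefSeq table of GRCm38.p6. Estimated counts were rounded and compared across all genes with edgeR 4.0.16 in R 4.3.3 (filterByExpr, TMM, glmQLFTest, Benjamini-Hochberg adjustment, threshold 0.05). Exact permutation tests compared FPKM, sums and shares by the absolute difference of means over 10 assignments of the libraries, p being the share at least as large. This statistic replaced a doubled one-sided p (smallest value 0.2) after a first run, and neither can reach 0.05. Alternatives were DESeq2 1.42.0, other filters, limma 3.58.1 with trend on log2(FPKM + 0.1, 0.01 or 1) where 2 libraries reached an FPKM of 0.5, fits without 1 library each, and a replicate block. The fits were tested on simulated data with a dispersion (variation between libraries beyond counting error) of 0.05 and no differences between lines. The median dispersion of these data was 0.349. That test therefore does not show how often the fits find or miss genes here. In each library 3 counts, the limit for 0 counts, correspond to 0.10 CPM, for counting error only.

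The genes followed and the gene lists were chosen with earlier results of these data known. All 10 genes are named, with the 3 most abundant genes of each other list (some by range only), any gene passing the test and up to 3 closest patterns. Other genes are marked as named after their values were seen, and single genes of the marker lists beyond the most abundant were picked after their values were seen. Some genes of these lists are counted but not reported here by name. Python 3.11.15, numpy 2.4.6, pandas 2.3.3 and scipy 1.17.1 were used.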

Additional observations from a re-analysis of the deposited data

How the results depend on the processing

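The count of genes passing an adjusted p of 0.05 depended on the tool. DESeq2 called 1113 genes higher and 487 lower, and 10 of the other junction genes, where edgeR called 0. Limma called 1 gene higher at each pseudocount, and 5, 3 and 7 genes lower with 0.1, 0.01 and 1 added. The edgeR fit called 4 genes lower with no filter and 1 with at least 10 counts in every library. Of the members, DESeq2 called Cdh6 (log2 fold change 6.08) and Cdh11 (3.33), and its adjusted p for Cdh3 is missing. Jup and Ctnnb1 kept their sign in every alternative, with log2 fold changes from 1.05 to 3.28 and from 0.24 to 1.11. Other members depended on the value added to the FPKM. With 0.1, 0.01 and 1 added, limma gave log2 fold changes of 2.42, 4.88 and 0.66 for Cdh6, against 5.93 with edgeR. For Cdh11 they were 3.01, 3.52 and 1.55, against 3.41, and for Cdh1 1.81, 0.78 and 2.38, against 4.39. The sign turned on log2 FPKM with 0.1, 0.01 and 1 added for Cdh3 (-1.72, -2.05 and -0.78), Ctnna1 (0.0307, 0.0306 and 0.0322) and Ctnnal1 (0.0946, 0.0961 and 0.0819). The median of all genes tested was 0.29 with edgeR, 0.21 with DESeq2 and 0.61 on log2(FPKM + 0.1), each over its own genes; why the signs turned was not tested further. With the replicate number as a block, the log2 fold change was -0.45 for Cdh1, -2.24 for Cdh3 and 0.10 for Ctnna1. The block called 0 genes. The Pearson correlation of deviations across genes was -0.107 for both same-numbered pairs, and the number was not taken to pair the libraries. Deviations of 2 wt libraries from their mean are mirror images, so these values are not independent and cannot settle the pairing. Both replicate 1 libraries are also labelled as grown without TSH.

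Leaving out 1 library at a time called 0 genes in each direction and 0 of the other junction genes. The log2 fold changes then ranged from 0.24 to 0.73 for Ctnnb1, 1.05 to 3.28 for Jup, -0.70 to 0.04 for Ctnna1 (0.038 without null replicate 3), -0.88 to -0.17 for Ctnnal1, 1.87 to 4.87 for Cdh1, 0.08 to 1.01 for Cdh2, -4.13 to 0.91 for Cdh3, 5.05 to 8.56 for Cdh6 and 1.98 to 4.15 for Cdh11. With 1 wt library left, that library is assumed to vary like the null libraries. The null minus wt difference ranged from 3.08 to 24.3 percentage points for the share of Jup, from 103.5 to 168.9 FPKM for Ctnnb1 plus Jup, from 13.9 to 99.4 FPKM for the 6 cadherins (13.9 without null replicate 1) and from 15.9 to 51.7 percentage points for the share of Cdh1. On TMM-scaled CPM, the group means of the sums differed by 372.6 for Ctnnb1 plus Jup and by 247.7 for the cadherins, in another unit. These means hide that null replicate 2 was not above the wt libraries in the cadherin sum. Cdh1 and Cdh6 have no value with at least 10 counts in every library.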
